A study of Mus musculus with 12 samples.

Results

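The Ugt2b genes of the mouse encode UDP-glucuronosyltransferases, and 7 of them were described here in liver: Ugt2b1, Ugt2b5, Ugt2b34, Ugt2b35, Ugt2b36, Ugt2b37 and Ugt2b38. They were chosen by name, and they and the gene lists below were chosen with earlier results of these data known. A transcript cluster, the set of probes that an array reads as 1 gene, was included where its only symbol in the platform annotation was one of these names. Each gene had 1 such cluster, so the members were 7 of the 21789 clusters with a single symbol, in a table of 35557 clusters. The annotation gave no other symbol to any of the 7 clusters. The genes are close paralogs, the probe sequences were not used here, and signal from 1 member on the probes of another was not tested.

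UDP-glucuronosyltransferases sit in the membrane of the endoplasmic reticulum. They transfer glucuronic acid from UDP-glucuronic acid to steroids, bile acids, drugs and other small molecules, and the products leave in bile or urine. The liver is a main site of this reaction, and many of the enzymes accept overlapping substrates, so only a shared role is given for most members. Rat UGT2B1 is known to glucuronidate bisphenol A. NCoR, the nuclear receptor corepressor, binds thyroid hormone receptors that carry no hormone and holds their target genes down. In the L-NCoR∆ID mouse the liver makes an NCoR that lacks domains through which it contacts nuclear receptors.

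Livers of 12 mice were profiled from total RNA with Affymetrix Gene 1.0 ST arrays, 1 array for each numbered mouse. The 4 groups held 3 mice each. The hypothyroid mutants were L-NCoR∆ID mice numbered 5, 6 and 7, and the euthyroid mutants were L-NCoR∆ID mice numbered 2, 3 and 4. The hypothyroid controls were numbered 17, 18 and 20, and the euthyroid controls 13, 14 and 15. The labels say no more of the controls than their name and thyroid state, and the sources used here give neither the sex, age or strain of the mice, nor the driver of the liver-specific change, nor how hypothyroidism was induced. The question of the series, from its design text, is how NCoR takes part in positive and negative regulation of liver genes.

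Upstream DNA of 3 members is shown because Ugt2b37 and Ugt2b38 had the most similar upstream sequences of any pair and different values across groups, and because Ugt2b35 was the member with a change in the other direction. Each line gives the 250 bases upstream of the annotated start, 5′ to 3′ on the gene's own strand, from RefSeq on GRCm38.p6. All 7 members had such a sequence, and all lie on chromosome 5. Capitals mark the palindrome GTTANNNNNTAAC, which resembles the site of the liver factor HNF1, and the hexamer AGGTCA, which many nuclear receptors bind. The Ugt2b37 sequence is chr5:87254789-87255038 on the minus strand, that of Ugt2b38 is chr5:87424204-87424453 on the minus strand, and that of Ugt2b35 is chr5:87000610-87000859 on the plus strand.
Ugt2b37: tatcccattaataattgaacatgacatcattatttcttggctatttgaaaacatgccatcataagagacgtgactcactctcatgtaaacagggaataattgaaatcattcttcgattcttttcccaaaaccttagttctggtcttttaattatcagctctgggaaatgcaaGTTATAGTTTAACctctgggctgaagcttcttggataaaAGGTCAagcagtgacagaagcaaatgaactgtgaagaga
Ugt2b38: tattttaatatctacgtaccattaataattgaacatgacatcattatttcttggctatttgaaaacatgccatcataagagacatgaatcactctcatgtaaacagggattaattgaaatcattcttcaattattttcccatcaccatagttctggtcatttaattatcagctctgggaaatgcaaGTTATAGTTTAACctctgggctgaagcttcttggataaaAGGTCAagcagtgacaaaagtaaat
Ugt2b35: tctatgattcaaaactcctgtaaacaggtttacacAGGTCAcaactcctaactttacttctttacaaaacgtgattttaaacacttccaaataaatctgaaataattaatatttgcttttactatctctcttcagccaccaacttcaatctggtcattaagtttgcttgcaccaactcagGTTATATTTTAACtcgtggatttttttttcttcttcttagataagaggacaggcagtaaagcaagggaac
The Ugt2b37 and Ugt2b38 windows aligned with 224 identical bases, or 89.6% of the window, against 84.8% for Ugt2b5 with Ugt2b38, 79.6% for Ugt2b5 with Ugt2b37 and at most 66.0% for every other pair.

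Both strands were searched for each motif. The palindrome was present in 7 of 7 members, always between 49 and 89 bases before the start, and in 0.307% of the 32851 upstream windows of this length in the table (101 windows). It was picked after the sequences were seen, and the members share ancestry, so they are not 7 separate cases. The hexamer AGGTCA was present in 5 of 7 members, all but Ugt2b1 and Ugt2b34, and in 14% of all windows. In Ugt2b5, Ugt2b36, Ugt2b37 and Ugt2b38 it lay between 17 and 39 bases before the start, and in Ugt2b35 it lay 210 to 215 bases before it. The direct repeat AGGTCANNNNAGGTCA, an arrangement that thyroid hormone receptors bind, was in 0 of 7 windows and in 0.0152% of all windows. A match is a description of these letters and not a site of binding. On chromosome 5 the RefSeq order of the protein-coding genes was Ugt2b34, Ugt2b1, Ugt2b35, Ugt2b36, Ugt2b5, Ugt2b37, Ugt2a3, Ugt2b38, with Ythdc1 before them and Ugt2a1, Ugt2a2 and 3 sulfotransferase genes after them. No other protein-coding gene lay inside that run.

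The deposited values are log2 signals made with RMA, and array medians lay between 4.16 and 4.32. A difference of 1 on this scale is a 2-fold difference in signal. A cluster was called, here and below, at a Benjamini-Hochberg adjusted p under 0.05 from limma fitted to all 4 groups and all 21789 clusters. Dio1, a gene that thyroid hormone induces in liver, averaged 3.25 in hypothyroid mutants, 9.62 in euthyroid mutants, 3.23 in hypothyroid controls and 8.57 in euthyroid controls, so the labelled thyroid states stood apart for Dio1. It was 1 of 5 such genes listed, with 6 clusters. With hypothyroidism 2 of 6 were called lower in controls, Dio1 and Gpd2 (-1.62), and 1 of 6 in mutants, Dio1. None was called higher. Thrsp differed by -0.73 in controls and -0.63 in mutants, and Me1 and Klf9 by -0.001 to 0.18, none of them called. Over all clusters 0.473% were called lower in controls and 0.454% in mutants. No cluster was named Ncor1, so the altered gene was not analysed here. Hepatocyte markers (6 of 8 measured) averaged between 12.56 and 12.89 on the arrays. A euthyroid control (14) and a hypothyroid mutant (7) lay at the ends of the main axis of variation over all genes, and their values are given where leaving them out changed a result. The signal range also differed: the SD of all clusters on an array was 2.32 to 2.35 in hypothyroid mutants, 2.26 to 2.31 in euthyroid mutants, 2.29 to 2.30 in hypothyroid controls and 2.22 to 2.28 in euthyroid controls.

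Ugt2b37 (cluster 10531061) varied far more than the other members. Its signal was 3.99, 4.22 and 4.04 in hypothyroid mutants, 8.57, 7.34 and 9.83 in euthyroid mutants, 3.78, 2.85 and 2.99 in hypothyroid controls, and 5.35, 4.87 and 6.49 in euthyroid controls. The 4 groups did not overlap: euthyroid mutants were highest, then euthyroid controls, then hypothyroid mutants, and hypothyroid controls were lowest. Its range over the 12 arrays was 6.98 log2 units, against 0.68 to 1.83 for the other 6 members. It was below the array median on 5 of 12 arrays, all from hypothyroid mice, and no other member was below the median on any array. The deposited values carry no detection call, so how near these low signals lie to background was not tested.

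**Figure D1:**
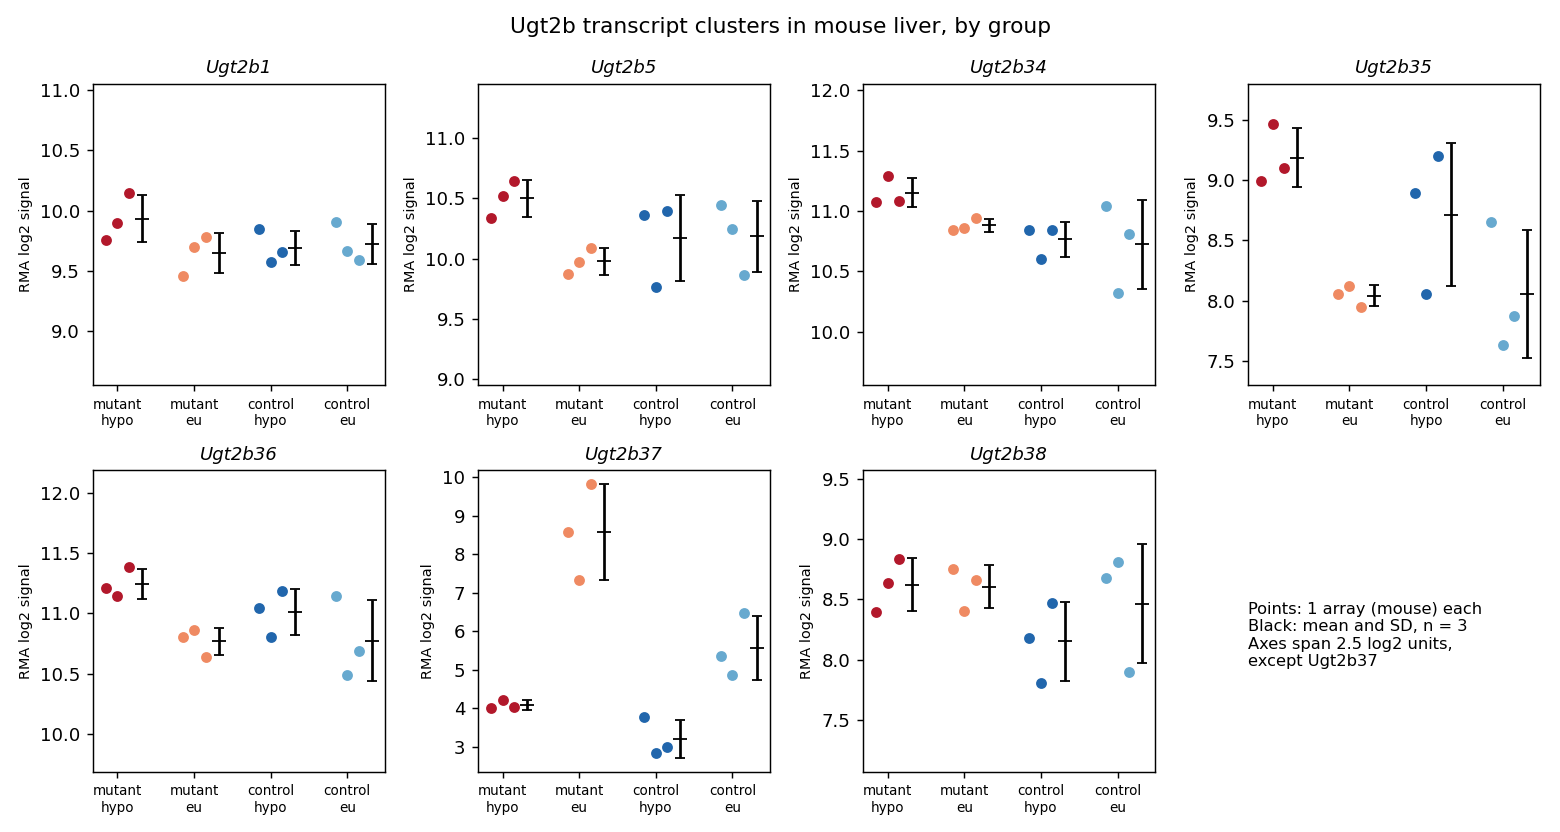
RMA log2 signal of each Ugt2b cluster (vertical axis) by group (horizontal axis; hypo, hypothyroid; eu, euthyroid). Points are single arrays and black bars are the mean and SD of 3 arrays; Ugt2b37 alone has a wider axis, and its euthyroid mutants sit between 7.34 and 9.83, above every other array.

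In euthyroid mice Ugt2b37 was the 1 member of 7 that was called, and it was higher in the mutants. It averaged 8.58 ± 1.24 in euthyroid mutants and 5.57 ± 0.830 in euthyroid controls (SD, n = 3 each), a difference of 3.01 ± 0.486 (SE), or 8.06-fold, with an adjusted p of 0.0217 from limma. Across all clusters 0.129% were called in this comparison, 0.124% higher and 0.00459% lower, and 5.05% had groups that did not overlap and were higher in mutants. The call held in 15 of 21 alternative analyses. It was lost, among others, without euthyroid control 14 (difference 2.66, adjusted p 0.109), without euthyroid mutant 2 (3.01, 0.0913) and without euthyroid mutant 4 (2.39, 0.0772); the difference stayed between 2.21 and 3.63 in all 21. The other 6 members differed by -0.21 to 0.16, and their 95% intervals together spanned -0.60 to 0.62, so a change of 2-fold lay outside all 6 intervals. The median over the 7 members was -0.01, beside 0.00 over all clusters.

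In hypothyroid mice 0 of 7 members were called between mutants and controls, where 0.262% of all clusters were called. Ugt2b37 averaged 4.08 ± 0.121 in hypothyroid mutants and 3.21 ± 0.500 in hypothyroid controls (SD, n = 3 each). The difference was 0.88 ± 0.486 (95% interval -0.16 to 1.91, adjusted p 0.540 from limma). The 2 groups did not overlap for Ugt2b37 or for Ugt2b34, both higher in mutants, and 12.4% of all clusters were separated in that direction. Ugt2b34 was at 11.08, 11.29 and 11.08 in hypothyroid mutants, against 10.85, 10.60 and 10.85 in hypothyroid controls, with a difference of 0.39 and an adjusted p of 0.434. All 7 members had a difference above 0, with a median of 0.39, beside 46.2% above 0 and a median of -0.02 over all clusters. Among clusters whose average over the 12 arrays was above the median level, 59.9% were above 0 and the median was 0.07. Hypothyroid control 18 was the lowest of its group in 7 of 7 members. Without it the Ugt2b35 difference was 0.14 in place of 0.47.

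**Figure D2:**
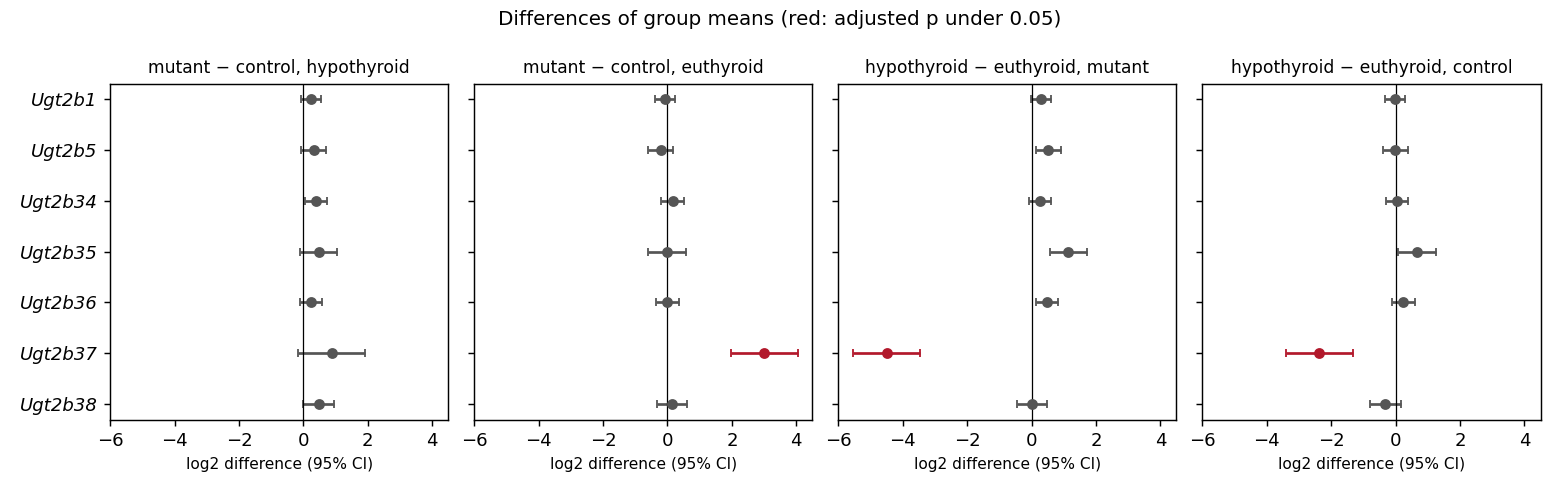
Differences between group means on the log2 scale (horizontal axis) for the 7 clusters (vertical axis), 1 panel for each comparison, with 95% confidence intervals from limma. Red marks an adjusted p under 0.05, which only Ugt2b37 reached: 3.01 for mutant minus control in euthyroid mice, -4.50 for hypothyroid minus euthyroid in mutants and -2.36 in controls.

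The mutant effect on Ugt2b37 in hypothyroid mice minus that in euthyroid mice was -2.13 ± 0.687 (SE, the interaction, unadjusted p 0.00733, adjusted p 1.00 from limma). That difference was not called. No cluster was called in this comparison (0 of 21789 with limma), and 2.75% had an unadjusted p under 0.05. The effect of the mutation is therefore not shown to differ between the thyroid states for this gene. Averaged over both states the mutants were higher by 1.94 ± 0.343, with an adjusted p of 0.0113, and the exact permutation p within thyroid state was 0.005, the smallest that the 400 relabellings can give. Ugt2b37 was the only member called for that average, where 1.14% of all clusters were called and 0.904% were called higher. The call was lost without both outlying arrays (adjusted p 0.0604), with every cluster of the table tested (0.0795) and with the SD of each array as a covariate (0.116).

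Ugt2b37 fell with hypothyroidism in both genotypes. In the mutants it averaged 4.08 ± 0.121 in the hypothyroid and 8.58 ± 1.24 in the euthyroid group (SD, n = 3 each), a difference of -4.50 ± 0.486 (SE), or 22.5-fold, with an adjusted p of 0.000273 from limma. This call held in 21 of 21 alternatives, which ranged from -5.12 to -3.87. In the controls it averaged 3.21 ± 0.500 in the hypothyroid and 5.57 ± 0.830 in the euthyroid group, a difference of -2.36, or 5.14-fold, with an adjusted p of 0.0274. Each comparison called 1.11% of all clusters, with 0.454% lower in hypothyroid mutants and 0.473% lower in hypothyroid controls. In the controls 7.88% of all clusters had groups that did not overlap and were lower in hypothyroid mice, as Ugt2b37 was. The call in controls held in 16 of 21. It was lost with the SD of each array as a covariate (adjusted p 0.183), with every cluster tested (0.126), without euthyroid control 15 (-1.90, adjusted p 0.112), without hypothyroid control 18 (-2.18, 0.128) and without hypothyroid control 20 (-2.26, 0.116). Averaged over genotypes the difference was -3.43 ± 0.343, or 10.8-fold, with an adjusted p of 3.16e-05 and an exact permutation p of 0.005, again the smallest possible.

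The group means of Kupffer cell markers lay in the same order as those of Ugt2b37, although hypothyroid mutants overlapped euthyroid controls. The mean signal of 8 of 8 such markers was 5.33 to 6.13 in hypothyroid mutants, 6.16 to 7.13 in euthyroid mutants, 5.20 to 5.36 in hypothyroid controls and 5.76 to 5.79 in euthyroid controls, and none had a group mean below the median level. All 8 were above 0 for mutant minus control in euthyroid mice, beside 50% of all clusters. Of them 0 were called, beside 0.129% of all clusters. All 8 were below 0 for hypothyroid minus euthyroid in both genotypes. In the mutants 1 was called, Clec4f, beside 0.454% of all clusters called lower, and in the controls 0, beside 0.473%. Over all clusters 47.3% were above 0 in mutants and 48.7% in controls. In the averages 1 of 8 was called higher in mutants (0.904% of all clusters) and 2 of 8 lower with hypothyroidism (1.87%). The group means of the hepatocyte, endothelial, stellate and cholangiocyte lists, and of the 1 erythroid marker measured, did not lie in the order of Ugt2b37. The part of these markers in the Ugt2b37 result was not tested. In bulk liver RNA, fewer cells of a type and less RNA per cell cannot be told apart.

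Ugt2b35 (cluster 10522819) was higher in hypothyroid livers. It was at 9.0, 9.47 and 9.10 in hypothyroid mutants and 8.06, 8.12 and 7.95 in euthyroid mutants, and these groups did not overlap. In controls it was at 8.89, 8.05 and 9.20 in the hypothyroid group and 8.65, 7.64 and 7.87 in the euthyroid group, and these groups overlapped. The difference was 1.14 ± 0.272 in mutants (adjusted p 0.0611 from limma) and 0.66 ± 0.272 in controls (0.314), neither of them called. Averaged over genotypes it was 0.90 ± 0.192 (SE), or 1.87-fold, with an adjusted p of 0.0129 and an exact permutation p of 0.01. In that average 1 member rose, Ugt2b35, and 1 fell, Ugt2b37, where 6.04% of all clusters were called, 4.18% higher and 1.87% lower.

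The Ugt2b35 call did not hold in every alternative. With the SD of each array as a covariate the averaged difference was 0.41 (adjusted p 0.663). That covariate also took the clusters called in this average from 1317 to 181. Without both outlying arrays the difference was 0.82 (0.0510). The Ugt2b35 call held in 17 of 20 alternatives, and the difference within mutants alone passed in 6 of 21. Between genotypes it differed by -0.01 in euthyroid mice, with a 95% interval of -0.59 to 0.57.

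Ugt2b1, Ugt2b5, Ugt2b34, Ugt2b36 and Ugt2b38 were called in no comparison of the 7 made. Ugt2b5 averaged 10.50 ± 0.152 in hypothyroid mutants, 9.98 ± 0.110 in euthyroid mutants, 10.17 ± 0.358 in hypothyroid controls and 10.18 ± 0.295 in euthyroid controls (SD, n = 3 each). Ugt2b36 averaged 11.24 ± 0.122 in hypothyroid mutants, 10.77 ± 0.115 in euthyroid mutants, 11.01 ± 0.191 in hypothyroid controls and 10.77 ± 0.335 in euthyroid controls. In the mutants both were separated by thyroid state, with differences of 0.52 for Ugt2b5 (adjusted p 0.202 from limma) and 0.48 for Ugt2b36 (0.193). With Ugt2b34 (0.27) and Ugt2b35, 4 of 7 members were higher in every hypothyroid than in every euthyroid mutant, beside 14.6% of all clusters. Ugt2b37 alone was separated downward, beside 11.1% of all clusters. In the controls the Ugt2b5 difference was -0.01 and that of Ugt2b36 was 0.24. Averaged over genotypes Ugt2b36 differed by 0.36, with an exact permutation p of 0.02 unadjusted over members and an adjusted p of 0.0777 from limma. It was not called, and without euthyroid control 13 it was (0.45, adjusted p 0.0100). Without that array 3579 of all clusters were called in this average, against 1317 with it.

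Ugt2b1 spanned 9.46 to 10.15 over the 12 arrays, the narrowest range of the members. It averaged 9.93 ± 0.197 in hypothyroid mutants, 9.65 ± 0.166 in euthyroid mutants, 9.69 ± 0.139 in hypothyroid controls and 9.72 ± 0.165 in euthyroid controls. Ugt2b34 averaged 11.15 ± 0.122 in hypothyroid mutants, 10.88 ± 0.0555 in euthyroid mutants, 10.76 ± 0.142 in hypothyroid controls and 10.72 ± 0.368 in euthyroid controls. Averaged over thyroid states its mutants were higher by 0.27, with an exact permutation p of 0.035 unadjusted over members and an adjusted p of 0.255 from limma, so it was not called.

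The 6 members other than Ugt2b37 shared part of their variation from array to array. Their mean deviation from their own averages was 0.17 to 0.41 in hypothyroid mutants, -0.16 to -0.11 in euthyroid mutants, -0.36 to 0.17 in hypothyroid controls and -0.34 to 0.19 in euthyroid controls. The hypothyroid mutants, which had the widest signal range, all lay above 0. The ranges of hypothyroid and euthyroid controls overlapped. With the SD of each array as a covariate none of the 6 members was called in any of the 7 comparisons. In the main fit only Ugt2b35 of the 6 was called, for hypothyroid minus euthyroid averaged over genotypes, so 1 call was lost. That covariate also took the clusters called for hypothyroid minus euthyroid averaged over genotypes from 1317 to 181. The SD differed between groups, so signal range and group cannot be told apart here. The part of the signal range in these small differences was not tested.

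Ugt2b38 lies nearest to Ugt2b37 in upstream sequence and was called in no comparison. It averaged 8.62 ± 0.218 in hypothyroid mutants, 8.60 ± 0.180 in euthyroid mutants, 8.15 ± 0.330 in hypothyroid controls and 8.46 ± 0.493 in euthyroid controls. Hypothyroid minus euthyroid was 0.02 in mutants and -0.31 in controls. The Ugt2b37 signal minus the Ugt2b38 signal on the same array changed by 1.64 with the mutation and by -3.28 with hypothyroidism, each averaged over the other factor. The pair was chosen after the values were seen, so these differences are a description with no test.

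Neighbouring profiles were picked by their likeness on these same arrays, so their differences describe that choice. By the measure used, the root mean square difference over 12 arrays after each cluster was centred on its own mean, the profiles nearest to Ugt2b37 were Cyp17a1 at 1.05 log2 units, Elovl3 at 1.13 and 9030619P08Rik at 1.18, beside a spread of 2.14 for Ugt2b37 itself. Cyp17a1 encodes the steroid 17-hydroxylase and lyase, and Elovl3 a fatty acid elongase. Hypothyroid minus euthyroid was -2.67 in mutants and -2.52 in controls for Cyp17a1, -3.25 in mutants and -2.17 in controls for Elovl3, and -5.65 in mutants and -4.64 in controls for 9030619P08Rik, all of them called. In euthyroid mice the mutants exceeded the controls by 1.04 for Cyp17a1 (adjusted p 0.448 from limma), 1.66 for Elovl3 (0.248) and 1.59 for 9030619P08Rik (0.0136, called). The Elovl3 call in controls was lost without euthyroid control 14 or any hypothyroid control (-2.25 to -2.06), and the last call, of 9030619P08Rik, without euthyroid control 14, euthyroid mutant 2 or euthyroid mutant 4 (1.39 to 1.64).

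For Ugt2b35 the nearest profiles were Scp2 at 0.197 log2 units, Gsr at 0.211 and Entpd5 at 0.245, beside a spread of 0.590 for Ugt2b35. Scp2 encodes sterol carrier protein 2, Gsr glutathione reductase and Entpd5 a nucleoside diphosphatase of the endoplasmic reticulum. Averaged over genotypes, hypothyroid minus euthyroid was 0.89 for Scp2 (adjusted p 0.00160 from limma), 0.67 for Gsr (0.0109) and 0.77 for Entpd5 (0.000469). All 3 were chosen for their likeness to Ugt2b35 on these arrays, so these values and calls describe that choice and are no separate evidence. In all 4 clusters hypothyroid control 18 was the lowest of its group and euthyroid control 13 the highest of its group. With the SD of each array as a covariate none of the 3 passed (0.54 for Scp2, 0.40 for Gsr and 0.53 for Entpd5), and without both outlying arrays Gsr did not (0.61, adjusted p 0.0504).

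**Figure D3:**
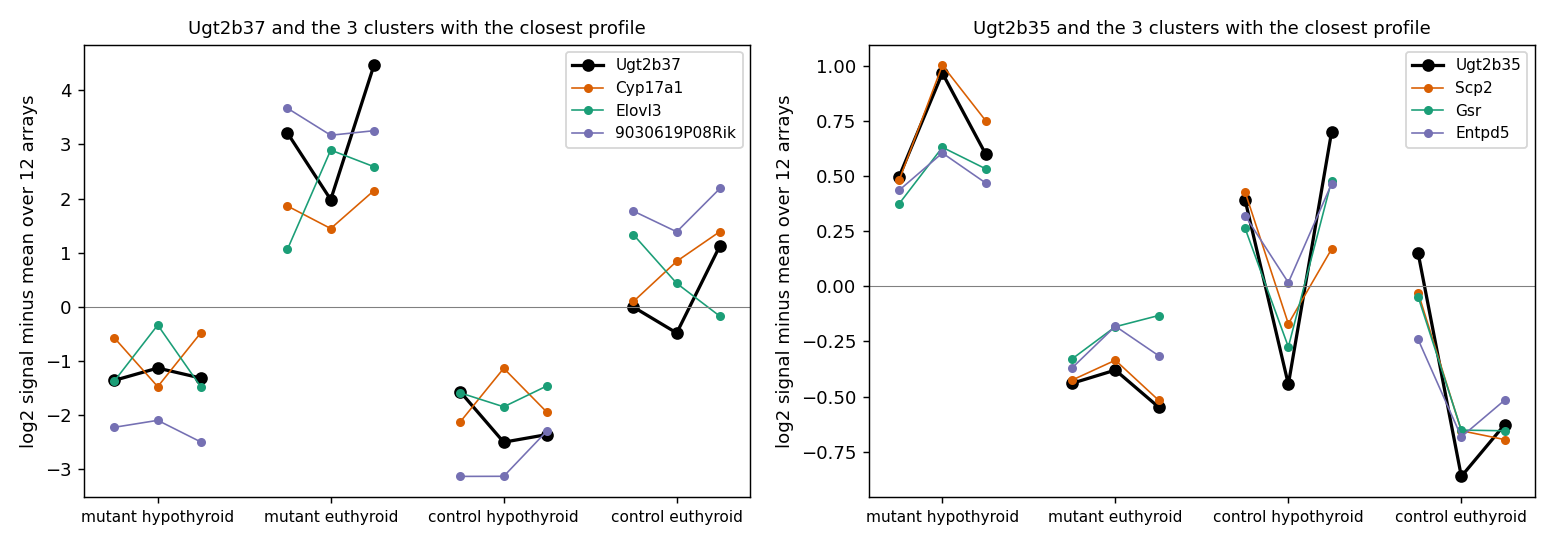
Log2 signal of each array minus the cluster's mean over 12 arrays (vertical axis) by group (horizontal axis), for Ugt2b37 (left) and Ugt2b35 (right) with the 3 nearest profiles of each. Lines join the 3 arrays of a group and carry no order; Ugt2b37 and its 3 neighbours lie below 0 in every hypothyroid mouse.

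Other UDP-glycosyltransferases showed no call. Of 15 listed, 4 had clusters with a single symbol (Ugt2a3, Ugt3a1, Ugt3a2 and Ugt8a), and 0 of 4 were called in any of the 7 comparisons. Those comparisons called between 0% and 6.04% of all clusters, so 0 of 4 does not set these genes apart. Ugt2a3, which lies between Ugt2b37 and Ugt2b38, differed by 0.05 between euthyroid mutants and euthyroid controls, and by 0.37 between hypothyroid and euthyroid mutants (adjusted p 0.301 from limma). The Ugt1a genes, the other large family of these enzymes, had 0 clusters of a single symbol. The 1 cluster that carries several Ugt1a symbols, from which no gene is named, differed by 0.40 between hypothyroid and euthyroid mutants (adjusted p 0.287 over every cluster of the table) and was not called in any of the 7 comparisons.

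Of 5 genes that supply UDP-glucuronic acid, all measured, 4 were called higher in hypothyroid livers averaged over genotypes and 0 lower, where 4.18% of all clusters were called higher. Within genotypes 3 of 5 were called higher in mutants and 2 of 5 in controls, beside 0.652% and 0.638% of all clusters. The median of the averaged differences was 0.60, beside -0.02 over all clusters. Pgm2, a phosphoglucomutase, was not called (0.21, adjusted p 0.146 from limma). Ugp2, which makes UDP-glucose, averaged 9.20 in hypothyroid mutants, 8.0 in euthyroid mutants, 9.49 in hypothyroid controls and 8.34 in euthyroid controls. It rose by 1.20 in mutants (adjusted p 0.000675 from limma) and by 1.15 in controls (0.000611). Ugdh, which oxidises UDP-glucose to UDP-glucuronic acid, averaged 11.29 in hypothyroid mutants, 10.30 in euthyroid mutants, 10.78 in hypothyroid controls and 9.72 in euthyroid controls, and rose by 0.99 in mutants (0.0213) and 1.06 in controls (0.0129). Slc35d1, which carries UDP-glucuronic acid into the endoplasmic reticulum, rose by 0.63 in mutants (0.0338) and differed by 0.56 in controls (0.0577).

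Pgm1, another phosphoglucomutase, was among the 4 with 0.37, and its call held in 9 of 20 alternatives. It was lost without any 1 hypothyroid control, without euthyroid mutants 2 or 4, or without hypothyroid mutants 5 or 7 (0.34 to 0.37). None of these 5 genes was called between mutants and controls. Over all clusters 0.129% were called in euthyroid mice, 0.262% in hypothyroid mice and 1.14% in the average. The differences of the 5 genes in euthyroid mice ranged from -0.33 for Ugp2 to 0.58 for Ugdh. With the SD of each array as a covariate the averaged calls of Ugdh (0.77, adjusted p 0.124) and Slc35d1 (0.49, 0.181) were lost while Ugp2 passed in all 20 alternatives. The Ugdh call in mutants was lost without any 1 of the 6 mutant arrays (difference 0.93 to 1.08), and the call in controls without euthyroid control 15, hypothyroid control 17 or hypothyroid control 20 (0.94 to 1.02). That of Slc35d1 in mutants was lost without any 1 of the mutant arrays, euthyroid control 15 or hypothyroid control 20 (0.59 to 0.70).

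Among 7 transporters that carry glucuronides and other organic anions, 4 rose and 1 fell with hypothyroidism averaged over genotypes, where 4.18% of all clusters were called higher and 1.87% lower, with a median of 0.44. Abcc4, an exporter of the sinusoidal membrane, rose by 1.85 in mutants (adjusted p 0.000729 from limma) and by 1.55 in controls (0.00189). Abcc3, another sinusoidal exporter, rose by 0.94 in mutants (0.00208) and by 1.03 in controls (0.000736). Slco1a1, an uptake carrier, fell by 2.57 in the average (0.0259), a call that held in 11 of 20 alternatives. It was lost without euthyroid control 14, hypothyroid controls 18 or 20, euthyroid mutants 3 or 4, or hypothyroid mutant 5, where the difference was -2.52 to -2.10. The other 2 rises were Abcg2 (0.75), called in 9 of 20 alternatives, and Abcc2 (0.44), called in 6 of 20, both exporters of the bile canaliculus. With the SD of each array as a covariate they were at 0.24 for Abcg2 and 0.05 for Abcc2. The Abcg2 call was lost without any 1 array (0.63 to 0.75) other than euthyroid control 13, hypothyroid control 17, euthyroid mutant 3 and hypothyroid mutant 5. The Abcc2 call was lost without any 1 array (0.34 to 0.47) other than euthyroid control 13 and hypothyroid mutant 5. Between mutants and controls no transporter was called within either thyroid state, beside 0.129% of all clusters in euthyroid and 0.262% in hypothyroid mice. Averaged over thyroid states 1 of 7, Abcc4, was called higher in mutants (0.78, adjusted p 0.0265 from limma), beside 0.904% of all clusters. The Abcc4 call held in 9 of 20 alternatives. That call was lost without any 1 array (0.68 to 0.81) other than euthyroid control 13, hypothyroid control 20, euthyroid mutant 3 and hypothyroid mutant 7.

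**Figure D4:**
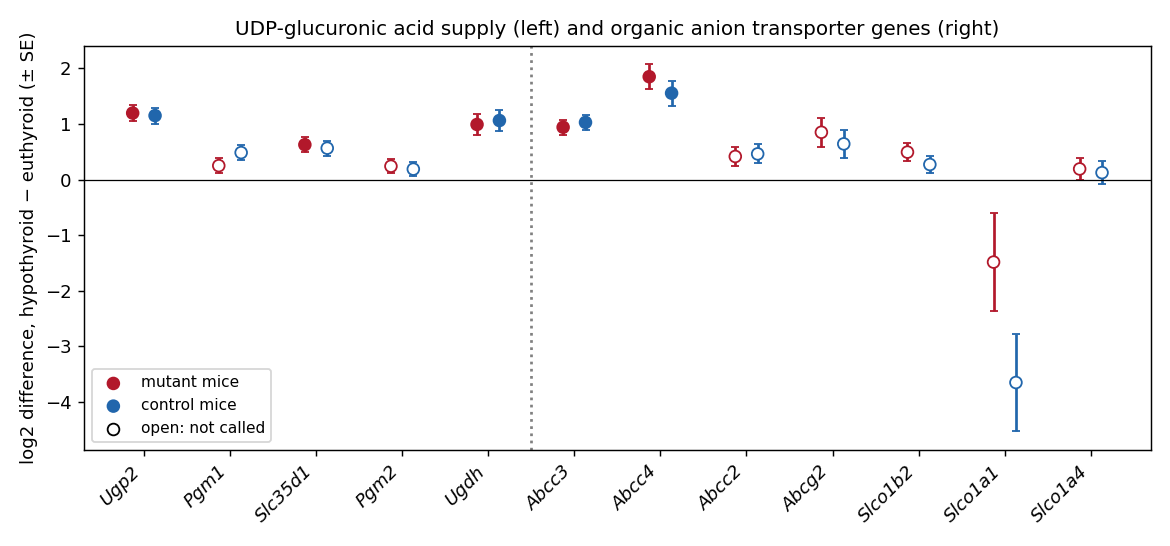
Log2 difference of hypothyroid minus euthyroid (vertical axis, ± SE from limma) for 5 genes of UDP-glucuronic acid supply and 7 organic anion transporters (horizontal axis), with mutants in red and controls in blue. Filled points had an adjusted p under 0.05; Ugp2, Ugdh, Abcc3 and Abcc4 were filled in both genotypes, between 0.94 and 1.85.

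Nr1i2 and Nr1i3 encode PXR and CAR, nuclear receptors that respond to drugs and bile acids and are known to induce glucuronosyltransferases. Of 9 measured receptors and factors known to act on Ugt genes, 0 were called in the 4 comparisons within a genotype or thyroid state. Those comparisons called 0.129% to 1.11% of all clusters. In the averages 1 of 9 was called lower in mutants (0.234% of all clusters) and 2 of 9 higher with hypothyroidism (4.18%). Averaged over the other factor, Nr1i3 differed by -0.65 in mutants (adjusted p 0.0365 from limma), and with hypothyroidism Nr1i3 was higher by 0.51 (0.0429) and Nr1i2 by 0.42 (0.0329). These 3 calls held in 8, 6 and 8 of 20 alternatives. The call of Nr1i3 with hypothyroidism was lost without any 1 array other than euthyroid control 13 and euthyroid mutant 3 (0.42 to 0.56). The other 2 calls were lost without any 1 array other than euthyroid control 13, hypothyroid control 20, euthyroid mutant 3 and hypothyroid mutant 5 (-0.65 to -0.56 for Nr1i3 and 0.37 to 0.42 for Nr1i2).

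Of 7 measured genes that Nr1i2 and Nr1i3 are known to induce, 2 were called higher in mutants in hypothyroid mice and 1 in euthyroid mice. Over all clusters 0.216% and 0.124% were called higher. Ces2a, a carboxylesterase, was higher in mutants by 1.81 in hypothyroid mice (adjusted p 2.49e-05 from limma) and by 1.13 in euthyroid mice (0.00347). It passed in 21 of 21 alternatives both times. Cyp3a11, a drug and steroid hydroxylase, was higher in hypothyroid mutants than in hypothyroid controls by 1.39 (0.00521). In hypothyroid mice the uncalled differences ranged from 0.04 for Cyp2b10 to 2.56 for Cyp2c55. In euthyroid mice they ranged from -0.12 for Cyp2c37 to 0.86 for Cyp2c55. With hypothyroidism 1 of 7 fell in controls, Cyp3a11 at -0.92 (0.0293), beside 0.473% of all clusters. In mutants 0 of 7 were called, beside 1.11%. Averaged over genotypes 1 of 7 was higher and 0 lower, where 4.18% of all clusters were called higher and 1.87% lower. It was Aldh1a1, an aldehyde dehydrogenase, at 0.51 (0.0245), called in 11 of 20 alternatives. That call was lost without euthyroid control 15, hypothyroid controls 17 or 20, euthyroid mutant 4, or hypothyroid mutants 6 or 7 (0.46 to 0.52). The Cyp3a11 call in controls was lost without euthyroid control 14, hypothyroid control 17 or hypothyroid control 20 (-0.89 to -0.76).

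Genes of steroid metabolism other than glucuronidation moved in both directions with thyroid state. Of 12 measured, 2 rose and 3 fell with hypothyroidism averaged over genotypes, where 4.18% of all clusters were called higher and 1.87% lower. The largest fall was that of Cyp17a1 (-2.59, adjusted p 1.56e-05 from limma). Cyp7b1, an oxysterol hydroxylase (-1.13, 0.00283), and Hsd17b2 (-0.86, 0.00428) also fell. Within mutants 2 of 12 were called higher and 1 lower, beside 0.652% and 0.454% of all clusters. Hsd17b6 rose there by 1.02 (0.00641) and Hsd17b13 by 0.94 (0.0128), members, like Hsd17b2, of the hydroxysteroid dehydrogenase family. The Hsd17b13 call was lost without euthyroid mutant 4 (0.86) or hypothyroid mutant 5 (0.83). Averaged over thyroid states 2 of 12 were higher in mutants, beside 0.904% of all clusters. They were Sult1e1, the oestrogen sulfotransferase, by 3.16 (0.00786) and Cyp7b1 by 1.17 (0.00756). Of 8 genes that break down or use glucuronic acid, 3 rose and 1 fell with hypothyroidism in the average, beside 4.18% and 1.87% of all clusters. Akr1a1, which reduces glucuronic acid, rose by 0.45 (0.00416), Xylb, a xylulose kinase, by 0.39 (0.0317), Cryl1, a gulonate dehydrogenase, by 0.34 (0.0360), and Gulo, the last enzyme of vitamin C synthesis, fell by 0.58 (0.00629). The Cryl1 call held in 6 of 20 alternatives and was lost without any 1 array (0.29 to 0.37) other than euthyroid control 13 and hypothyroid control 20. The Xylb call held in 9 of 20 alternatives and was lost without euthyroid control 15, hypothyroid controls 17 or 18, euthyroid mutants 2 or 4, or any hypothyroid mutant (0.33 to 0.41).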

How the data were processed

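Values for liver RNA of 12 mice in 4 groups of 3 were taken from the deposited table, whose log2 signals the authors made with RMA, per the submitters' processing notes. These sources name no RMA version or option and no scan date or array batch, so no batch was tested. Members and gene lists were chosen with earlier results of these data known. Symbols come from the platform annotation, and clusters with several symbols or none stayed out of the tests.

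The tests used limma 3.58.1 (R 4.3.3), with 4 group means on all 12 arrays, lmFit and eBayes, no filter, Benjamini-Hochberg adjustment over 21789 clusters within each comparison, and 95% intervals from moderated variances. The 4 comparisons within a genotype or thyroid state share groups, so they are not independent. The p-values set a difference against the spread between these mice, and the number of arrays limits precision. Averages over a factor were also tested per member by a two-sided exact permutation test within the other factor (400 relabellings). The fit was tested on simulated data.

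Named were all members, up to 3 called genes of each list with the largest difference, or 2 as values where none was called, and the 3 nearest profiles of each called member. The signs of differences are mutant minus control and hypothyroid minus euthyroid. Upstream sequences of RefSeq were searched in Python 3.11.15 and aligned with Biopython 1.88. Alternatives changed scaling, filtering, the groups fitted, array weights, and the arrays included.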

Additional observations from a re-analysis of the deposited data

How the results depend on the processing

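The count of called members, out of 7, moved as follows. For mutant minus control in euthyroid mice it was 1, and 0 with every cluster of the table tested, 0 in a fit of only the 2 groups, 0 without both outlying arrays, 2 with array weights, and 0 to 1 when each array was left out. For hypothyroid minus euthyroid in mutants it was 1, and 2 in a fit of only the 2 groups, 2 with limma's trend, 2 with array weights, and 1 to 2 when each array was left out. In controls it was 1, and 0 with the SD of each array as a covariate, 0 with every cluster, 3 with array weights, and 0 to 2 when each array was left out. For the average over thyroid states of mutant minus control it was 1, and 0 with the covariate, 0 with every cluster, 0 without both outlying arrays and 3 with array weights. For hypothyroid minus euthyroid averaged over genotypes it was 2, and 1 with the covariate, 1 with every cluster, 1 without both outlying arrays and 4 with array weights. It was 2 to 3 when each array was left out. The 3 came without euthyroid control 13, where 3579 of all clusters were called against 1317 with it. For mutant minus control in hypothyroid mice and for the interaction the count was 0 and did not move. The weights stopped short of their convergence tolerance. Counts over all clusters also moved. With array weights 2733 were called for mutant minus control in euthyroid mice, against 28 in the main fit. For hypothyroid minus euthyroid the weights called 827 in mutants (main fit 241), 5680 in controls (242) and 5736 averaged over genotypes (1317). For mutant minus control averaged over thyroid states they called 3439 (248). With the covariate the average over thyroid states had 41 called and that over genotypes 181. No member or listed gene that was called reversed under any alternative. With the covariate the calls in mutants of Ugp2 (1.06, adjusted p 0.0543), Abcc3 (0.75, 0.137), Cyp17a1 (-2.09, 0.101) and Hsd17b6 (0.75, 0.282) were also lost. The change in Ugt2b37 minus Ugt2b38 was chosen after seeing the data and lay between 1.34 and 2.01 for the mutation and between -3.54 and -2.91 for hypothyroidism when each array was left out. A permutation test of 3 against 3 arrays was not run, since its smallest p is 0.1. No paired analysis was possible because the groups share no replicate numbers. Where the table gives no detection call, low signals limit the size of a fold, above all for Ugt2b37 in hypothyroid mice. The causes of these shifts were not tested.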
